A study of Homo sapiens with 12 samples.

Results

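The human mitochondrial chromosome was followed through RNA sequencing of HepG2 cells, a hepatocellular carcinoma line, in which the enzyme thiosulfate sulfurtransferase (TST) had been altered. All genes that the count tables place on chromosome MT were taken, which gave 35 of 57500 genes, made up of 13 protein genes and 22 tRNA genes. The counts held no entry for the ribosomal RNA genes MT-RNR1 and MT-RNR2, so each mitochondrial share below is given without them. The 12 libraries formed 3 groups of 4 replicates. WT was the wild-type control, and shTST carried a TST-directed shRNA plasmid. The overTST line carried a codon-optimized TST coding sequence in a lentiviral vector with a CMV promoter. The altered lines were transduced and selected with blasticidin, with no cloning step described, and all 3 groups were held in normal medium with 400 µM glycine for 24 h. The WT libraries were not described as carrying an empty vector, so that transduction and selection cannot be told apart from the change in TST.

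Human mitochondrial DNA is a small circle present in many copies per cell, and both of its strands are transcribed into long RNAs that carry several genes each. Most mRNAs and rRNAs in these transcripts are flanked by tRNAs, whose excision by RNase P and ELAC2 releases the RNAs between them. The protein genes encode core subunits of respiratory complexes I, III and IV and of the ATP synthase, complex V, and these enzymes also need many subunits encoded in the nucleus. Genes released from a shared transcript are not independent of each other, so the number of genes that moved together does not count independent events.

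Total counts per library ran from 22911380 to 45120508, and they were lower in overTST (at most 27414142) than in WT (at least 28866175). TST itself lay at 47.2 to 52.8 CPM in WT, at 33.0 to 36.6 in shTST and at 51.8 to 62.1 in overTST. CPM stands for the count scaled to a common library size with TMM factors. The log2 fold change of TST was −0.52 in shTST (SE 0.054, edgeR adjusted p = 2.7e-06) and 0.24 in overTST (SE 0.062, edgeR adjusted p = 0.0039), and the codon-optimized transgene need not be counted on the native gene. All 8 hepatocyte markers looked for, ALB and APOB among them, were present in every group, at a summed 21377 to 28547 CPM. Of the blood markers PTPRC and HBB were at no more than 1 count and CD68 was at 27 to 72 counts, and the fibroblast markers summed to at most 0.301 CPM. The 3 endothelial markers, PECAM1, VWF and CDH5, were low. Their sum was 2.51 to 3.29 CPM in WT, 1.81 to 2.16 in shTST and 3.40 to 3.91 in overTST. This sum rested mainly on PECAM1, as VWF reached at most 0.355 CPM and CDH5 at most 0.725 CPM in any library. The groups stood in the same order as in the mean mitochondrial share below. The part of these markers in that share was not tested.

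The mitochondrial chromosome took a larger part of the counts in overTST than in shTST, and WT spanned both. Its share was 6.91%, 9.42%, 6.95% and 11.98% in WT replicates 1 to 4, for a mean of 8.81% ± 2.42 (SD, n = 4). In shTST it was 8.65%, 7.61%, 7.34% and 6.84% (7.61% ± 0.765, SD, n = 4). In overTST it was 11.6%, 11.7%, 10.8% and 11.5% (11.4% ± 0.396, SD, n = 4). Every overTST library thus lay above every shTST library, by a mean difference of 3.80 percentage points. WT replicates 1 and 3 lay within the shTST range, WT replicate 2 lay between the ranges, and WT replicate 4 lay above every other library. In bulk RNA, lower levels in each cell and fewer cells with high levels cannot be told apart. As a share of all counts, the value also depends on the counts of nuclear genes.

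**Figure D1:**
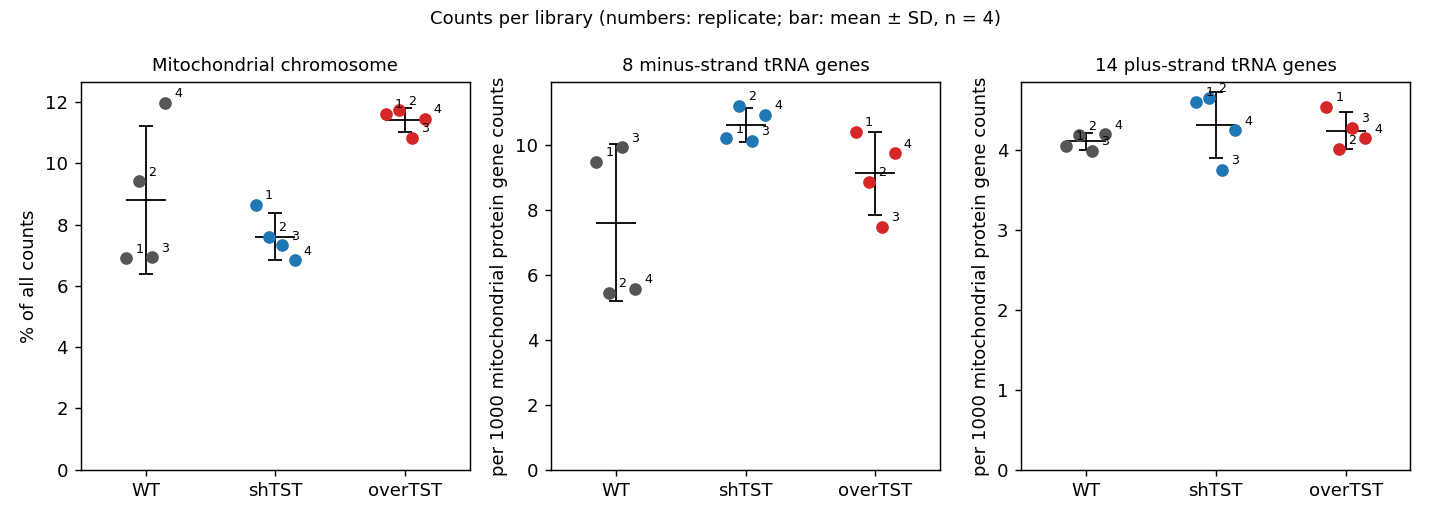
Counts per library in WT, shTST and overTST, with replicate numbers beside the points and the mean ± SD (n = 4) as bars. The left panel gives the share of all counts on the mitochondrial chromosome in %, and the other panels give the counts on minus-strand and plus-strand mitochondrial tRNA genes per 1000 counts on mitochondrial protein genes. The overTST shares (10.8% to 11.7%) lie above all shTST shares (6.84% to 8.65%), and the WT libraries split into replicates 1 and 3 and replicates 2 and 4 in the left and middle panels.

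The split of WT ran through the protein genes. In WT replicate 4 all 13 protein genes lay above every shTST library, and 6 of the 13 also lay above every overTST library. In WT replicates 1 and 3 none of the 13 reached the overTST range, and 5 in each lay below every shTST library. WT replicate 2 lay above every shTST library for 11 of the 13 and below every overTST library for all 13. Calls of mitochondrial genes against WT that were lost when a single WT library was left out are named or counted below.

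Per length, the ATP synthase and cytochrome oxidase genes had the highest levels of the protein genes in WT. In WT, MT-ATP6 stood at 16936 CPM per kb ± 5707 (SD, n = 4), MT-ATP8 at 16456 ± 5827, MT-CO1 at 12852 ± 3614, MT-CO2 at 9894 ± 2826 and MT-CO3 at 9358 ± 2303. The complex I subunits ran from MT-ND4 (8785 ± 3101), MT-ND6 (7061 ± 2210), MT-ND3 (6741 ± 978) and MT-ND1 (5696 ± 1919) to MT-ND2 (4434 ± 1330), MT-ND4L (2801 ± 1024) and MT-ND5 (2686 ± 868). MT-CYB, the only complex III subunit of this genome, lay between MT-ND2 and MT-ND4L at 3638 ± 1111. Neighbours in this order differed by less than the larger of their SDs, while the ends of the order were apart by more than their spread. These SDs are between libraries, in which the protein genes rose and fell together. Each had a correlation of 0.935 to 0.996 with the sum of the others. The SDs therefore do not decide the order of neighbours within a library, which was not tested. In overTST the order began with the same genes, at 23464 ± 689 CPM per kb for MT-ATP6 and 21920 ± 1327 for MT-ATP8 (SD, n = 4), and in shTST these stood at 14810 ± 1848 and 13845 ± 1545.

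MT-ATP8 and MT-ATP6, on the plus strand at 8366 to 8572 and 8527 to 9207 of the GRCh38 mitochondrial sequence, share their 46 bases from 8527 to 8572 in different reading frames, so reads there cannot be assigned to either gene. That stretch is shown because both levels rest on it, with the start codon of MT-ATP6 and the stop codon of MT-ATP8 in capitals (GENCODE 29, 5′ to 3′).
MT-ATP8 and MT-ATP6 overlap: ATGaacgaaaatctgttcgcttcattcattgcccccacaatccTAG
MT-ND4L (10470 to 10766) and MT-ND4 (10760 to 12137) overlap in the same way by 7 bases.

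**Figure D2:**
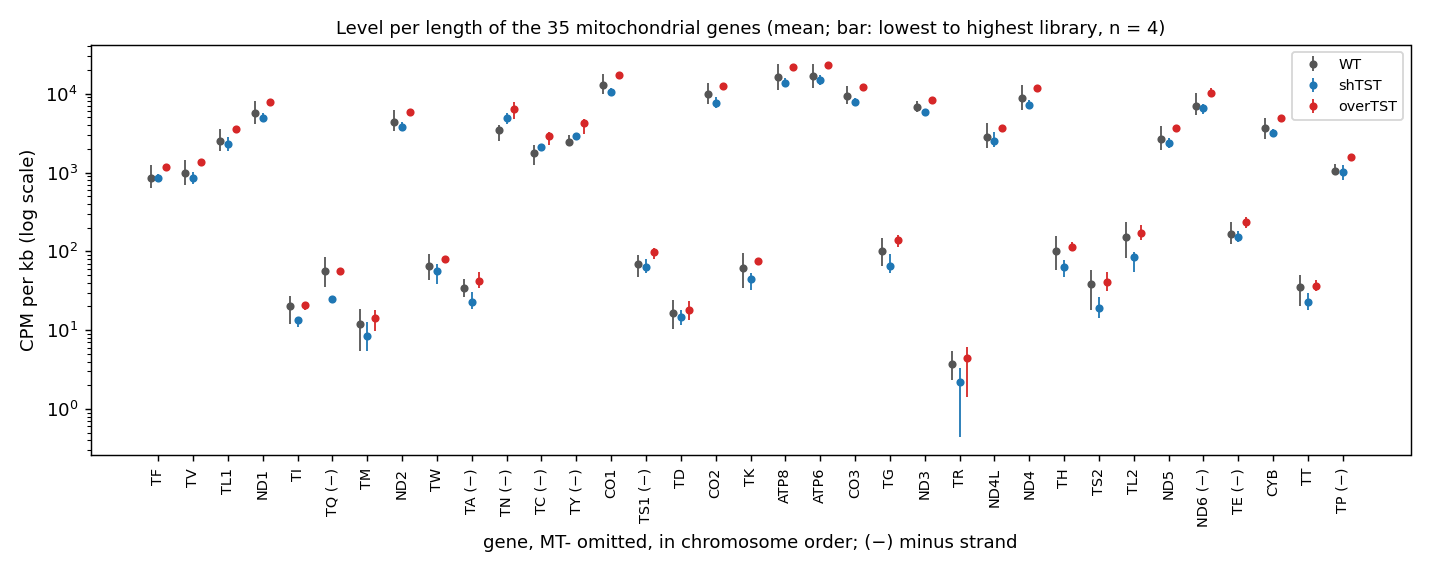
Level per length of the 35 mitochondrial genes in CPM per kb on a log scale, in the order of the chromosome, for WT, shTST and overTST (points: mean, bars: lowest to highest library, n = 4). The protein gene means are 2385 (MT-ND5 in shTST) or higher, the means of 7 tRNA genes are 842 (MT-TV in shTST) or higher, and the means of the other 15 tRNA genes are 233 (MT-TE in overTST) or lower.

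The direct comparison asks whether the 2 altered lines differed from each other, and it is the comparison in which the mitochondrial genes separated most clearly. With edgeR's quasi-likelihood test on 1 fit of all libraries, 31 of the 34 mitochondrial genes that passed the low-count filter were lower in shTST than in overTST and 0 were higher. Over all 14883 genes tested, 16.0% were lower and 16.7% higher. All 13 protein genes were among the lower ones, with log2 fold changes of −0.74 to −0.50 and a median of −0.66, against a median of 0.0012 over all genes. In 30 of the 34 genes, all 13 protein genes included, every shTST library lay below every overTST library, which 14.7% of all genes tested did. The 13 protein genes kept their calls with each library left out in turn. They also kept them after a correction for gene length, at a median of −0.51. The highest edgeR adjusted p was then 0.0415, against 0.0072 in the main fit. DESeq2 and limma-voom each called 12, the exception being MT-ND4L (adjusted p = 0.0841 with DESeq2 and 0.103 with limma-voom).

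Against WT the same genes gave weaker results, and the 2 comparisons share the WT libraries. In overTST 23 of 34 mitochondrial genes were called higher than in WT by edgeR and 0 lower, where 15.8% of all 14421 genes tested were higher and 18.3% lower. They included all 13 protein genes, at log2 fold changes of 0.30 (MT-ND3) to 0.54 (MT-ND6) with a median of 0.42. Every one of these 13 overlapped with WT, through WT replicate 4. DESeq2 and limma-voom each called 6 genes in place of 23, with 1 protein gene among them. EdgeR with a length correction called 5, also with 1 protein gene and with a protein gene median of 0.25. Over all 14421 genes these 3 settings called 2237, 2268 and 2053 higher, against 2272 in the main fit. The part of the 34 mitochondrial genes called higher was thus close to that of all genes in these settings. Without WT replicate 1, edgeR called 7 of the 13, and without WT replicate 3 it called 8. Without WT replicate 4 all 13 were called, with a median of 0.66.

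In shTST 2 mitochondrial genes were called higher than in WT and 7 lower by edgeR, against 6.83% and 9.53% of all 14584 genes tested. The 2 higher genes and 6 of the 7 lower ones were tRNA genes, and MT-CO2 was the only protein gene called. All 13 protein genes had a negative log2 fold change, with a median of −0.20. Without WT replicate 4 that median was −0.017, no protein gene was called and 5 were on the positive side (MT-ND1, MT-ATP6, MT-ND4L, MT-ND5 and MT-ND6). Without WT replicate 1 or 3 the calls among protein genes rose to 5 and 6. DESeq2 and limma-voom called 0 of the 13.

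**Figure D3:**
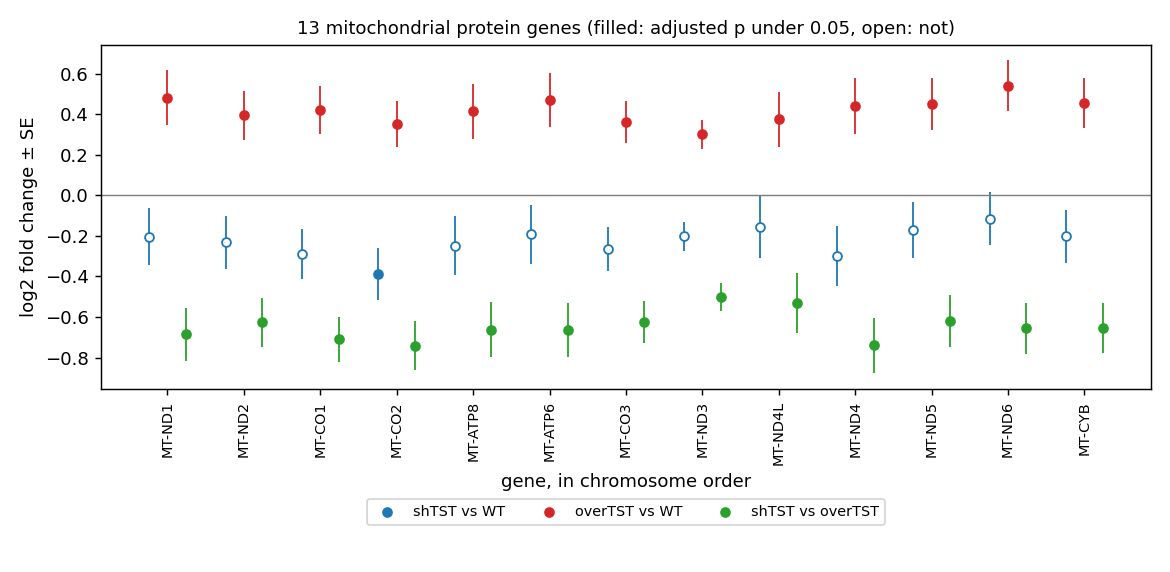
Log2 fold changes ± SE of the 13 mitochondrial protein genes in chromosome order for shTST against WT, overTST against WT and shTST against overTST, from edgeR (filled points: adjusted p under 0.05, open points: not). The shTST against overTST values lie between −0.74 and −0.50, those of overTST against WT between 0.30 and 0.54, and of the shTST against WT values that of MT-CO2 alone is filled.

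The cytochrome oxidase genes encode the catalytic core of complex IV, and with MT-ND4 the first 2 of them had the widest gaps between the altered lines. MT-CO1 (ENSG00000198804), which carries the haem and copper site that reduces oxygen, was the most counted of all members. It stood at 15230, 20454, 16138 and 27446 CPM in WT replicates 1 to 4, at 18150, 15864, 16133 and 14698 in shTST and at 26510, 27429, 25159 and 27000 in overTST. The overTST libraries formed a narrow band, and WT replicate 4 lay just above it. Its log2 fold change was −0.71 in shTST against overTST (SE 0.11, edgeR adjusted p = 4.2e-05), 0.42 in overTST against WT (SE 0.12, 0.0071) and −0.29 in shTST against WT (SE 0.12, 0.11).

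MT-CO2 (ENSG00000198712), the subunit that takes electrons from cytochrome c, had the most negative protein gene value in both shTST comparisons, level with MT-ND4 against overTST. It stood at 5076, 6930, 5641 and 9423 CPM in WT, at 6225, 5311, 4556 and 4577 in shTST and at 8599, 8820, 8548 and 8571 in overTST. The shTST libraries lay below all overTST libraries and overlapped with WT replicates 1 and 3. The log2 fold change was −0.74 in shTST against overTST (SE 0.12, edgeR adjusted p = 4.9e-05) and −0.39 in shTST against WT (SE 0.13, 0.041). The latter held in 4 of the 8 fits with a library left out, and without WT replicate 4 it was −0.18 (edgeR adjusted p = 0.21). MT-CO3, the third core subunit, had a log2 fold change of −0.62 between the altered lines (SE 0.10, edgeR adjusted p = 6.2e-05).

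Among the 7 complex I genes, MT-ND3 was the least variable and MT-ND6 the one that differed in strand. MT-ND3 (ENSG00000198840), part of the membrane arm near the quinone site, stood at 2034, 2400, 2114 and 2782 CPM in WT, at 2148, 2074, 2012 and 1876 in shTST and at 2875, 3015, 2719 and 2879 in overTST. The highest library was 1.61 times the lowest, the smallest such ratio of the protein genes, which reached 2.22 in MT-ND6. MT-ND3 had the smallest of the 13 differences between the altered lines, at −0.50, and also the smallest SE (0.069, edgeR adjusted p = 8.3e-06). In overTST against WT it was 0.30 (SE 0.073, edgeR adjusted p = 0.0024), the only protein gene that DESeq2 (4.0e-04) and limma-voom (0.023) also called.

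MT-ND6 (ENSG00000198695, minus strand, 14149 to 14673) is the only protein gene transcribed in the opposite direction to the others. It stood at 2787, 3778, 2943 and 5320 CPM in WT, at 3926, 3282, 3553 and 2920 in shTST and at 4922, 6189, 5015 and 5431 in overTST. Its shTST libraries lay below all overTST libraries and mostly above WT replicates 1 and 3. The log2 fold change was −0.66 between the altered lines (SE 0.13, edgeR adjusted p = 3.2e-04), close to the median of all 13, and 0.54 in overTST against WT (SE 0.13, 0.0017). It was the protein gene that kept its call in overTST against WT with the length correction (0.35, edgeR adjusted p = 0.037). As the use of strand in the counting was not given, the counts of MT-ND6 may include RNA of the other strand.

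The remaining complex I genes differed between the altered lines by −0.74 in MT-ND4 (SE 0.14), −0.69 in MT-ND1 (SE 0.13), −0.63 in MT-ND2 (SE 0.12), −0.62 in MT-ND5 (SE 0.13) and −0.53 in MT-ND4L (SE 0.15) on the log2 scale, and edgeR called all 5. MT-CYB, the cytochrome b of complex III, stood at 3083, 4818, 3097 and 5608 CPM in WT, at 4102, 3501, 3652 and 3188 in shTST and at 5737, 6135, 5233 and 5658 in overTST. Only WT replicate 4 reached the overTST range. The difference between the altered lines was −0.66 (SE 0.12, edgeR adjusted p = 2.3e-04). MT-ATP6 and MT-ATP8, the membrane subunits of the ATP synthase, both had −0.66 (SE 0.13 and 0.14, edgeR adjusted p = 4.6e-04 and 5.6e-04).

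The makeup of the mitochondrial mRNA differed little between the groups, while its total separated the altered lines from each other. Complex I took 38.4% to 39.7% of the protein gene counts in WT, 39.4% to 39.98% in shTST and 39.0% to 39.9% in overTST. Complex IV took 38.0% to 41.5%, 37.3% to 38.4% and 37.4% to 38.4% in the same order, complex V 15.3% to 18.0%, 17.3% to 18.0% and 17.3% to 17.8%, and complex III 4.60% to 5.21%, 4.83% to 5.14% and 4.71% to 5.05%. The ranges of all 4 complexes overlapped between all groups, and the widest belonged to WT, where replicate 3 had the highest complex IV share and the lowest complex V share. These shares are descriptions of single values per library and were not tested.

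The share within the protein gene counts was looked at for all 13 protein genes and between all 3 pairs of groups. For 3 of the genes it did not overlap in 1 pair. The shares of a library add up to a fixed total and so are not independent. How often such gaps arise without a difference was not tested. MT-CO2 made up 7.68%, 7.49%, 8.40% and 7.72% of the protein gene counts in WT replicates 1 to 4 and 7.41%, 7.33%, 6.41% and 7.06% in shTST, with no overlap. MT-ND6 made up 4.22%, 4.09%, 4.38% and 4.36% in WT and 4.67%, 4.53%, 5.003% and 4.51% in shTST, again with no overlap and in the other direction, while its overTST shares (4.20%, 5.09%, 4.52% and 4.61%) spanned both. MT-ND3 made up 2.45% to 2.48% in overTST and 2.56% to 2.90% in shTST, without overlap, whereas WT ran from 2.28% in replicate 4 to 3.15% in replicate 3.

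**Figure D4:**
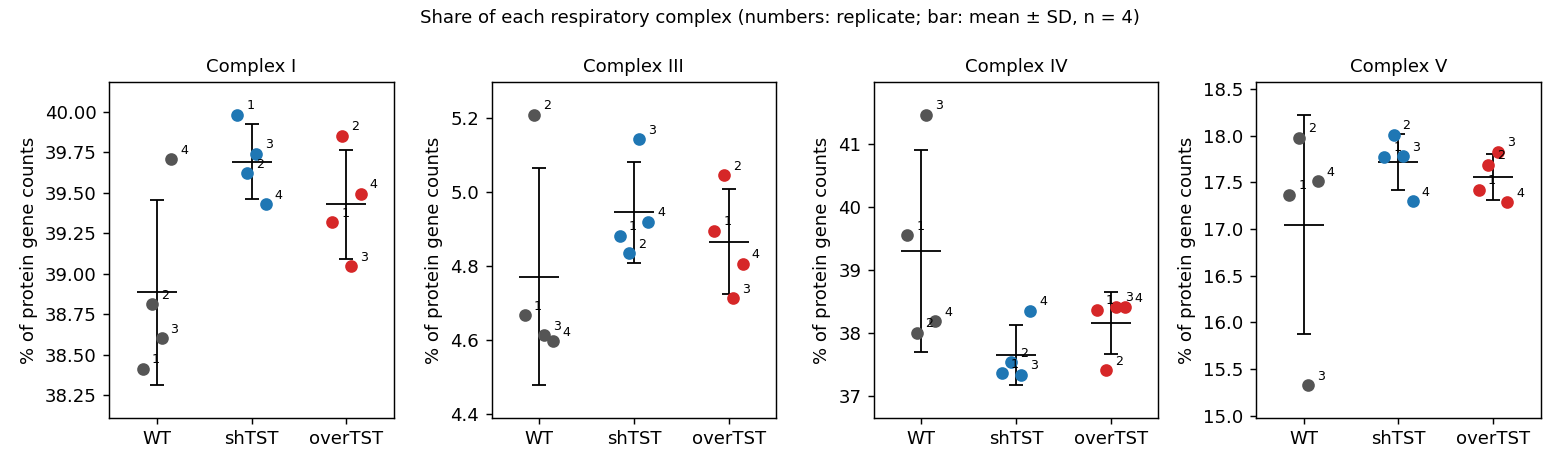
Share of each respiratory complex in the counts on mitochondrial protein genes, in %, per library of WT, shTST and overTST (numbers: replicate, bars: mean ± SD, n = 4; each axis covers the range of its own panel and does not start at 0). The groups overlap in all 4 panels, and WT has the widest spread, up to 41.5% for complex IV in replicate 3.

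The 22 tRNA genes held 0.955% to 1.56% of the mitochondrial counts, and 7 of them held nearly all of these. MT-TN, MT-TY, MT-TL1, MT-TC, MT-TP, MT-TV and MT-TF had medians of over 1000 counts and 1342 to 15243 counts per library, which was 92.0% to 96.2% of the tRNA counts. The other 15 had 1 to 564 counts, and MT-TR (median of 6 counts) did not pass the low-count filter. Of the 7 genes of high count 6 share a position in the tables, in that each borders the unlisted control region, an unlisted stretch of 954 or 1559 bases where the rRNA genes lie, or the 31-base gap at the light-strand origin. MT-TY is the exception and follows MT-TC, with which it shares position 5826. The 15 genes of low count lie within 25 bases of another listed gene on both sides. Whether reads on a tRNA gene came from mature tRNA or from longer RNA that spans it was not tested, and neither the library chemistry nor the use of strand in the counting was given in the sources used here.

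MT-TN, MT-TC and MT-TY, for asparagine, cysteine and tyrosine, lie side by side on the minus strand and had the highest values of all members against WT. Their sequences are shown with that of MT-TQ, the minus-strand tRNA gene for glutamine that went the other way, each 5′ to 3′ on its own strand with the anticodon in capitals (GENCODE 29, GRCh38, chromosome MT, 5657 to 5729, 5761 to 5826, 5826 to 5891 and 4329 to 4400).
MT-TN: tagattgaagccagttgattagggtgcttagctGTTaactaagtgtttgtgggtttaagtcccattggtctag
MT-TC: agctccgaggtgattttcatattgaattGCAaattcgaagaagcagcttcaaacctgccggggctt
MT-TY: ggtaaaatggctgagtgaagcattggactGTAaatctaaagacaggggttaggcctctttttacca
MT-TQ: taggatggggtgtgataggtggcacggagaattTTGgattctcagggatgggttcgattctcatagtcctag

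MT-TN (ENSG00000210135) was higher than in WT in both altered lines. It stood at 290, 185, 282 and 252 CPM in WT replicates 1 to 4, at 410, 396, 303 and 329 in shTST and at 569, 434, 348 and 491 in overTST. Both altered lines lay above all WT libraries and overlapped with each other. In shTST the log2 fold change was 0.51 (SE 0.10, edgeR adjusted p = 0.0016) and in overTST 0.87 (SE 0.11, 3.7e-06). DESeq2 called it in both (0.017 and 1.2e-04), and limma-voom called it in overTST (0.020) and not in shTST. It was the 1 mitochondrial gene above WT without overlap in shTST, where 8.37% of all genes were.

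MT-TY (ENSG00000210144) stood at 141, 147, 158 and 195 CPM in WT, at 200, 180, 202 and 180 in shTST and at 301, 307, 204 and 312 in overTST. Only WT replicate 4 reached the shTST range, and no WT library reached that of overTST. The log2 fold change was 0.25 in shTST (SE 0.072, edgeR adjusted p = 0.019) and 0.81 in overTST (SE 0.10, 1.7e-06), and DESeq2 and limma-voom called the second but not the first. The shTST call held in 5 of the 8 fits with a library left out and was lost without WT replicate 1 (edgeR adjusted p = 0.073). MT-TC (ENSG00000210140) had 0.27 in shTST (SE 0.10, edgeR adjusted p = 0.064) and 0.75 in overTST (SE 0.11, 2.4e-05). Its WT replicate 3, at 147 CPM, lay just above overTST replicate 3, at 146.

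MT-TP, the minus-strand gene for proline beside the control region, was the third tRNA gene that lay above all WT libraries in overTST, after MT-TN and MT-TY, where 14.2% of all genes did. It stood at 62.9, 65.9, 64.0 and 87.8 CPM in WT and at 113, 105, 107 and 96.9 in overTST. Its log2 fold change was 0.59 (SE 0.079, edgeR adjusted p = 4.4e-06), and DESeq2, limma-voom and the length correction called it too. In shTST (84.8, 74.8, 55.1 and 58.3 CPM) it spread across the WT range. The plus-strand genes MT-TF, MT-TV and MT-TL1, for phenylalanine, valine and leucine, which frame the rRNA region, were called higher in overTST by edgeR at 0.45 (SE 0.12), 0.48 (SE 0.13) and 0.51 (SE 0.12), all with overlap, and neither DESeq2 nor limma-voom called them. Of the tRNA genes of low count, MT-TS1, MT-TG and MT-TE, for serine, glycine and glutamate, were also called higher in overTST by edgeR, at 0.50 (SE 0.16), 0.45 (SE 0.17) and 0.50 (SE 0.14), and of these DESeq2 and limma-voom called MT-TS1. With a library left out MT-TE kept its call in 8 of 8 fits, MT-TS1 in 5 and MT-TG in 3, and without WT replicate 1 the edgeR adjusted p of MT-TS1 was 0.069 and that of MT-TG 0.14.

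The tRNA genes that fell in shTST were all of low count. MT-TQ (ENSG00000210107) stood at 2.55, 4.61, 2.75 and 6.13 CPM in WT, at 1.75, 1.88, 1.74 and 1.89 in shTST and at 3.96, 3.73, 4.42 and 3.91 in overTST, from 49 to 210 counts per library. The shTST libraries lay close together below all others. The log2 fold change was −1.16 in shTST against WT (SE 0.23, edgeR adjusted p = 0.0014), and DESeq2 (1.5e-05) and limma-voom (0.020) called it too. It was −1.14 in shTST against overTST (SE 0.23, edgeR adjusted p = 4.0e-04) and −0.02 in overTST against WT (SE 0.20, 0.95). MT-TQ was the 1 member below WT without overlap in shTST, where 10.8% of all genes were.

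Besides MT-TQ, edgeR called MT-TS2 (−1.07, SE 0.29), MT-TL2 (−0.86, SE 0.22), MT-TH (−0.71, SE 0.21), MT-TG (−0.65, SE 0.20) and MT-TA (−0.62, SE 0.20) lower in shTST than in WT on the log2 scale. MT-TH, MT-TS2 and MT-TL2, for histidine, serine and leucine, stand in a row between MT-ND4 and MT-ND5 with no base between them. MT-TL2 stood at 7.93, 12.4, 5.81 and 16.5 CPM in WT and at 7.05, 6.87, 3.86 and 6.21 in shTST, so that WT replicate 3 lay inside the shTST range. The calls of MT-TQ and MT-TL2 held with each of the 8 libraries left out, while those of MT-TS2, MT-TH, MT-TG and MT-TA held in 5, 5, 3 and 3 of them and were lost without WT replicate 4 (edgeR adjusted p = 0.056, 0.11, 0.11 and 0.13). Of the 5, DESeq2 and limma-voom called MT-TA alone.

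Against overTST, 18 of the 21 tRNA genes tested were lower in shTST. The genes of low count had the largest of these differences, with MT-TQ at −1.14 (SE 0.23), MT-TS2 at −1.12 (SE 0.31), MT-TG at −1.10 (SE 0.19) and MT-TL2 at −1.03 (SE 0.22), and MT-TN had the smallest called one, at −0.36 (SE 0.12, edgeR adjusted p = 0.021), which DESeq2 and limma-voom did not call. Between these, MT-TW, MT-TK and MT-TT, for tryptophan, lysine and threonine, had −0.52 (SE 0.19), −0.75 (SE 0.21) and −0.67 (SE 0.26), and against WT they were not called in either line. MT-TI, MT-TM and MT-TD, for isoleucine, methionine and aspartate, with 11 to 85 counts per library, were not called, at −0.62 (SE 0.25), −0.76 (SE 0.36) and −0.32 (SE 0.26). The first 2 values are as large as those of the protein genes, and their wider SE goes with the low counts.

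**Figure D5:**
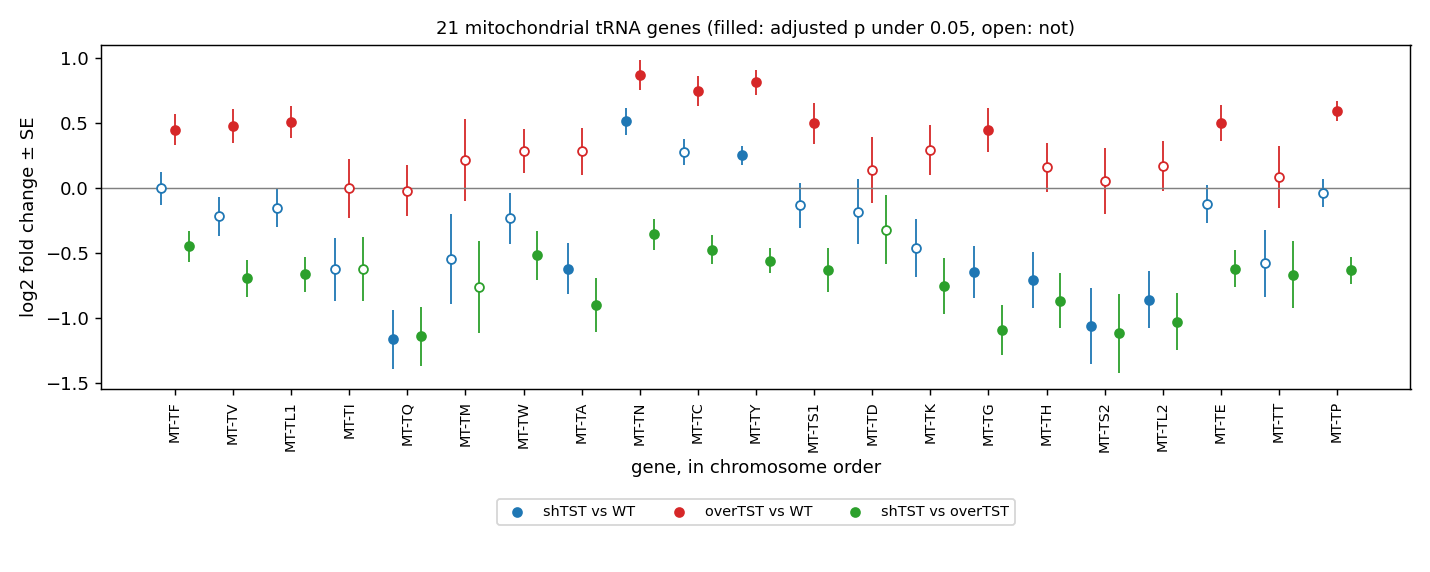
Log2 fold changes ± SE of the 21 mitochondrial tRNA genes that passed the low-count filter, in chromosome order, for shTST against WT, overTST against WT and shTST against overTST, from edgeR (filled points: adjusted p under 0.05, open points: not). MT-TN, MT-TC and MT-TY stand highest against WT in both altered lines (0.25 to 0.87), and MT-TQ and MT-TS2 stand lowest in shTST (−1.16 and −1.07).

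Taken by annotated strand, the summed minus-strand tRNA counts lay higher relative to the protein genes in shTST than in WT. This rested on the sum of MT-TN, MT-TC and MT-TY. The summed plus-strand counts overlapped between all groups. The use of strand in the counting was not given, so counts on a gene may include RNA of the other strand. The minus strand holds 9 of the 35 genes, MT-ND6 and 8 tRNA genes, and the plus strand 26. Per 1000 protein gene counts, the 8 minus-strand tRNA genes had 9.50, 5.46, 9.94 and 5.59 counts in WT replicates 1 to 4, 10.2, 11.2, 10.1 and 10.95 in shTST and 10.4, 8.88, 7.49 and 9.76 in overTST. All shTST libraries lay above all WT libraries. The values of WT replicates 2 and 4, the libraries with the larger mitochondrial share, lay far below those of WT replicates 1 and 3. The 14 plus-strand tRNA genes together had 3.98 to 4.19 counts in WT, 3.75 to 4.65 in shTST and 4.00 to 4.53 in overTST, which overlapped. Among them MT-TF had 0.775 to 0.874 in shTST, above WT (0.626 to 0.763) and overTST (0.685 to 0.738). Taken singly, the minus-strand MT-TY and MT-TE also lay above WT in shTST without overlap. MT-TQ lay below WT, and MT-TN and MT-TC overlapped with it. MT-TN, MT-TC and MT-TY made up most of the minus-strand value, with 4.48 to 8.74 in WT, 8.97 to 9.93 in shTST and 6.29 to 9.21 in overTST. The other minus-strand tRNA genes, among them MT-TQ and MT-TA with their lower levels in shTST, summed to 0.973 to 1.21 in WT, 1.01 to 1.29 in shTST and 1.10 to 1.21 in overTST, which overlapped. The 15 tRNA genes of low count went the other way, from 0.666 to 0.768 in WT to 0.533 to 0.658 in shTST, without overlap. All minus-strand genes together, MT-ND6 included, held 4.59% to 5.30% of the mitochondrial counts in WT, 5.52% to 5.93% in shTST and 5.17% to 5.90% in overTST.

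Some reads of the mitochondrial chromosome could also be counted on nuclear copies of its genes. The annotation holds 399 such copies, and the 3 with most counts lie close together on chromosome 1. MTATP6P1 (ENSG00000248527, plus strand, 633696 to 634376 of GRCh38) had 11472 to 28723 counts per library and is 98.5% identical to MT-ATP6, with an identical run of 141 bases. Copies of MT-ATP6 together held 3.77% to 6.69% as many counts as the gene itself. For MT-CO1 this was 0.288% to 0.415%, for MT-ND2 0.165% to 0.250%, and for the other protein genes at most 0.0399%. Adding the copies to their genes left the number of calls the same in all 3 comparisons.

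Most nuclear genes of the same complexes were also called higher in overTST than in WT. Of 37 nuclear complex I subunits, 25 were called higher and 1 lower in overTST than in WT by edgeR, with a median log2 fold change of 0.27. Of 9 complex III subunits 6 were higher (median 0.29), of 11 complex IV subunits 11 (0.28), and of 15 complex V subunits 13 were higher and 1 lower (0.31), each against a median of 0.0019 over all genes tested, of which 15.8% were higher and 18.3% lower. These genes are short, with median exonic lengths of 1922 to 3231 bases against 4479 over all genes. With the length correction the higher genes numbered 22, 5, 7 and 13, with medians of 0.19, 0.15, 0.18 and 0.24, and over all 14421 genes 2053 were higher and 2050 lower. In shTST the same lists had 5, 2, 2 and 2 genes higher and 1, 1, 0 and 1 lower than in WT, against 6.83% and 9.53% of all genes.

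In shTST against overTST 26, 6, 9 and 10 nuclear subunits of complexes I, III, IV and V were lower and 1, 0, 0 and 0 higher, with medians of −0.18, −0.22, −0.18 and −0.18, against 16.0% of all genes lower and 16.7% higher. With the length correction 17, 4, 2 and 9 were lower and 0, 0, 0 and 1 higher, with medians of −0.093, −0.11, −0.0835 and −0.15, and over all 14883 genes 2204 were lower and 1895 higher. The smallest p of each list belonged to NDUFS8 (−0.40, edgeR adjusted p = 7.6e-06), an iron-sulfur subunit, UQCRH (−0.36, 2.1e-05), the hinge protein of complex III, COX7C (−0.27, 5.8e-04) and ATP5MG (−0.33, 5.5e-05), a membrane subunit of the ATP synthase.

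Nuclear genes that act on mitochondrial DNA and RNA did not move to 1 side. The list of 36 held genes for transcription, RNA processing and RNA decay and also some for DNA replication and upkeep, such as POLG, TWNK and SSBP1. Of these 36, 4 were higher and 2 lower in shTST than in WT by edgeR, 8 higher and 4 lower in overTST than in WT, and 4 higher and 9 lower in shTST than in overTST, with medians of 0.014, 0.035 and −0.0004. Over all genes tested, 6.83% were higher and 9.53% lower in the first comparison, 15.8% and 18.3% in the second and 16.7% and 16.0% in the third. The 6 with the smallest p between the altered lines were all lower in shTST. They were MRPL12 (−0.39, edgeR adjusted p = 2.6e-05), a ribosomal protein that also binds the mitochondrial RNA polymerase, REXO2 (−0.37, 2.7e-05), which degrades short RNAs, and HSD17B10 (−0.27, 2.8e-04), a subunit of mitochondrial RNase P. The other 3 were the DNA-binding protein SSBP1 (−0.24, 4.2e-04), the mRNA-binding SLIRP (−0.36, 4.8e-04) and the topoisomerase TOP1MT (−0.24, 5.8e-04). LRPPRC, the partner of SLIRP, was higher in shTST than in overTST (0.18, edgeR adjusted p = 0.0054) and is named here after its value was seen.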

How the data were processed

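RNA of 12 HepG2 libraries was measured, 4 each of WT, shTST and overTST. The authors deposited whole-number read counts per Ensembl gene for each library, without normalization. Per the labels, reads were trimmed with Trimmomatic 0.36, aligned to GRCh38 with STAR 2.5.2b and counted with featureCounts of Subread 1.5.2. Library chemistry, strand use, multi-mapping settings and annotation release were not given in the sources used here. Reads that fit a nuclear copy or an overlapping gene could be lost or misplaced by this counting.

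All counts of 57500 genes were read (56410 with a symbol), and groups were taken from the sample titles. Between the 18 pairs of replicates chi-square per gene was 3.58 to 35.3, so no library was a copy. Genes were filtered with filterByExpr, scaled by TMM and tested with edgeR 4.0.16 (R 4.3.3) by quasi-likelihood, with Benjamini-Hochberg adjustment over all genes at 0.05. Each comparison with WT used its own 8 libraries, and shTST against overTST used all 12. SEs are the log2 fold change over the square root of F. Alternatives were DESeq2 1.42.0, limma-voom (limma 3.58.1), other scalings, filters and fits, a lowess length correction (span 0.3), nuclear copies added, a replicate block and each library left out. The fits were tested on simulated counts, in which genes varied independently and with the same spread. The mitochondrial protein genes rose and fell together, which that simulation did not copy. Shares used counts as deposited. Figures were drawn with matplotlib 3.10.9.

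The members and gene lists were chosen with earlier results of these data known. Named were TST, all protein genes, the tRNA genes past the filter or at the ends of the count range, and up to 6 nuclear genes per list, by smallest p, among those called in both comparisons with WT or between the altered lines. Values of other tRNA genes are given as ranges. Depth of 22911380 to 45120508 counts sets the counting error. The p-values measure the spread among the replicates of all groups in a fit, which for shTST against overTST includes WT. No second shTST or overTST line was described, so they do not measure the spread between separately made lines.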

Additional observations from a re-analysis of the deposited data

Results flagged for a closer look

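In each group of 4 libraries, a library was singled out where its gap to the nearest other library exceeded Dixon's 95% critical value as a share of the group's range, which chance alone does in about 1 in 20 groups. Of 126 groups looked at, over 35 genes and 7 shares, 7 held such a library. MT-TV stood at 99.99 CPM in overTST replicate 1 against 91.8 to 92.3 in the other 3, and MT-ATP8 at 4949 CPM in overTST replicate 2 against 4381 to 4415. MT-TY was low in overTST replicate 3, at 204 CPM against 301 to 312. MT-TC was low in shTST replicate 4, at 126 CPM against 143 to 144, and MT-TP was high in WT replicate 4, at 87.8 CPM against 62.9 to 65.9. Complex III took 5.21% of the protein gene counts in WT replicate 2 against 4.60% to 4.67%, and complex IV took 37.4% in overTST replicate 2 against 38.4% in each of the others. MT-TY kept its call in overTST against WT without overTST replicate 3, and MT-TP kept it without WT replicate 4, as both were called with each of the 8 libraries left out.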

How the results depend on the processing

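The difference between the altered lines was the steadiest result, with 31 genes lower in shTST, 28 to 31 with each library left out, 23 with limma-voom and 28 with DESeq2, and 0 higher throughout. The lower genes numbered 26 with the length correction and 33 in a fit of the 8 libraries of these lines alone. In overTST against WT the 23 higher genes became 6 with DESeq2, 6 with limma-voom and 5 with the length correction. Over all 14421 genes tested, the higher ones went from 2272 to 2237, 2268 and 2053 in the same settings. The mitochondrial ones became 15 with the length correction and replicate block together, and 15 to 27 with each library left out. The lower genes stayed at 0. In shTST against WT the 2 higher genes became 1 with DESeq2, 0 with limma-voom, 1 in one fit of all 12 libraries and 1 to 3 with a library left out. The 7 lower genes there became 2 with DESeq2, 2 with limma-voom, 24 with no filter, 12 with the length correction and replicate block, and 2 to 14 with a library left out. Under the length correction, which was applied to the nuclear lists after their values were seen, the complex IV subunits higher in overTST fell from 11 to 7, and those lower in shTST than in overTST went from 26 to 17 for complex I and from 9 to 2 for complex IV. At most 37 of the genes tested were under 100 bases, 21 of them mitochondrial tRNA genes. The span of that correction took in many more genes, so longer genes also set it at the short end. The causes of these changes were not tested.

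In shTST against WT, 5 protein genes changed sign without WT replicate 4. Over the 8 fits with a library left out, MT-ND1 ran from −0.33 to 0.019, MT-ATP6 from −0.33 to 0.031, MT-ND4L from −0.30 to 0.13, MT-ND5 from −0.30 to 0.061 and MT-ND6 from −0.23 to 0.12. Of tRNA genes that were not called, 7 of 13 in shTST against WT, 8 of 11 in overTST against WT and 0 of 3 between the altered lines changed sign in some alternative. The mitochondrial share differed by −1.84 to −0.148 percentage points in shTST minus WT, by 1.96 to 3.65 in overTST minus WT and by −4.15 to −3.55 in shTST minus overTST with a library left out.

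Whether the replicate numbers paired the samples was not settled. Same-numbered deviations had correlations of −0.053 to 0.080, and differently numbered ones of −0.106 to 0.078. Between shTST and WT, replicates 1 to 3 lay above all differently numbered values, with 0.080 against at most 0.002 in replicate 3. Replicate 4 lay below all of its own. With the number as a replicate block, 3 mitochondrial genes were higher and 8 lower in shTST than in WT. In overTST 23 were higher than in WT, and 32 were lower in shTST than in overTST. Over all genes the block raised the calls in shTST against WT from 996 to 1264 higher and from 1390 to 1738 lower. The all-gene calls rose in the other comparisons too. The planned shares of rRNA could not be computed, as the counts held no entry for MT-RNR1 or MT-RNR2.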
